A study of Homo sapiens with 6 samples.

Results

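The inflammatory chemokines of HK-2 cells were examined through 10 listed genes, CXCL1, CXCL2, CXCL3, CXCL5, CXCL6, CXCL8, CXCL16, CCL2, CCL20 and CX3CL1. They were chosen by name with their read counts in these same libraries already known, so their levels, their spread and their covariation are given as a description. Of the 10, 9 had a row among the 26899 genes of the counts table, and CXCL1 was not analysed here. The low-count filter passed 15299 genes, 8 chemokines among them, and left out CXCL6.

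HK-2 is a human proximal tubule line, made by transforming kidney cells with human papillomavirus, and all libraries came from it. Polyadenylated RNA was sequenced in 3 libraries labelled wild type, whose descriptions read shCtrl, and 3 libraries labelled ANXA2 knockdown, whose descriptions read shANXA2. Plasmids were introduced by lipid transfection according to the labels. Nothing in the labels says that the 3 libraries of a group came from separate cultures, so p-values measure the spread between these libraries, which may be technical.

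Chemokines are small proteins that draw leukocytes along a concentration gradient. The ELR-positive CXC ligands, to which CXCL2, CXCL3, CXCL5, CXCL6 and CXCL8 belong, bind CXCR2 and attract neutrophils, CCL2 attracts monocytes through CCR2, and CCL20 attracts CCR6-bearing lymphocytes and dendritic cells. CXCL16 and CX3CL1 differ in being made as transmembrane proteins on a mucin-like stalk, from which ADAM10 and ADAM17 release the soluble chemokine. Tubule cells are known to make several of these ligands when NF-kB, the transcription factor downstream of TNF and interleukin-1 receptors, is activated.

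The promoters of the secreted chemokines are shown first, because a short element recurs in 5 of them. RefSeq sequences on GRCh38.p14 ran from 250 bases before to 50 bases after the RefSeq start of each gene. They were matched by symbol for 7 of the 10 genes, and 6 of the 7, those with counts, are shown. The 9 letters GGAATTTCC, a core form of the NF-kB binding site, occurred once in each of the CXCL2, CXCL3, CXCL5, CXCL6 and CXCL8 promoters. The letters were chosen after these promoters had been read, and both strands were searched. Of all 35116 promoters of this length, 162 (0.461%) held them. Each stretch runs 5′ to 3′ on the strand of the gene, with that element in capitals. In CXCL8 the AP-1 letters TGACTCA, from -137 to -131, are in capitals too, and TGANTCA was found in 7.71% of all promoters. CCL20 lacked the core in this window, and its capitals mark a match of the longer kB consensus on the opposite strand, a pattern held by 11.3% of promoters that overlaps the core in CXCL2, CXCL3, CXCL5 and CXCL6. A match is a description of the letters and not of a bound site.

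CXCL8: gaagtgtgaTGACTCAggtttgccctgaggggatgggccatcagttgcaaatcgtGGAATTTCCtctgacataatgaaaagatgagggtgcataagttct
CXCL6: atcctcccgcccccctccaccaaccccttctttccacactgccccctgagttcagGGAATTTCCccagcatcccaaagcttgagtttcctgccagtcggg
CXCL5: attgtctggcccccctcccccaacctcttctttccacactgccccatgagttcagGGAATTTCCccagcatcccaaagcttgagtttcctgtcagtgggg
CXCL3: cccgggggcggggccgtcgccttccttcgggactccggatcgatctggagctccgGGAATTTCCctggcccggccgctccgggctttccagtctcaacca
CXCL2: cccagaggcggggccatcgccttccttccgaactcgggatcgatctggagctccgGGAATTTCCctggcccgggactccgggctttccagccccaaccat
CCL20: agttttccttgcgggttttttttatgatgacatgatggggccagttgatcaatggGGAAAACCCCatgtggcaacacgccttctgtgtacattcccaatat

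In the same build the printed stretches are chr4:73740423-73740522 (plus strand) for CXCL8, chr4:73836534-73836633 (plus strand) for CXCL6, chr4:73998723-73998822 (minus strand) for CXCL5, chr4:74038723-74038822 (minus strand) for CXCL3, chr4:74099228-74099327 (minus strand) for CXCL2 and chr2:227813708-227813808 (plus strand) for CCL20.

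The core began at -91 in CXCL8, -90 in CXCL5, -89 in CXCL6, -78 in CXCL3 and -77 in CXCL2, counted from the RefSeq start. In a global alignment the CXCL5 and CXCL6 promoters were 83.1% identical and those of CXCL2 and CXCL3 73.8%, whereas the other pairs among the 6 promoters lay between 40.1% and 50.6%.

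The genes themselves lie on 4 chromosomes in GRCh38, the build named in the submitters' processing notes. CXCL8 (73740519 to 73743716, plus strand), CXCL6 (73836640 to 73849064, plus), CXCL5 (73995642 to 73998677, minus), CXCL3 (74036589 to 74038807, minus) and CXCL2 (74097040 to 74099196, minus) sit on chromosome 4 within 358.7 kb. CCL2 (34255274 to 34257208, plus) and CXCL16 (4733533 to 4739928, minus) are on chromosome 17, CCL20 (227805739 to 227817564, plus) is on chromosome 2, and CX3CL1 (57372477 to 57385044, plus) is on chromosome 16. These spans are from GENCODE release 44, and their ends can differ from the RefSeq starts used for the promoters. The printed CCL20 stretch lies wholly inside the CCL20 span given here. Most of the CXCL3 stretch and the last bases of the CXCL8 stretch also lie inside the spans of those genes. Near-identical copies can exchange reads. Of the 100-base windows of CXCL2 transcripts, 5.34% also occurred in CXCL3, and 3.27% of the CXCL3 windows occurred in CXCL2, so a small part of either count is uncertain. No such window was shared by any of the other 7 genes with another gene. Exons of CXCL16 overlap those of MED11 and ZMYND15 on the opposite strand, and ZMYND15 had at most 11 reads in a library. The strand setting of the counting is not stated in the sources at hand, so CXCL16 reads are uncertain to that extent. Exons of CXCL6 overlap those of the pseudogene PPBPP1 on the same strand, and exons of CXCL5 those of a long noncoding RNA on the opposite strand. Neither has a row of counts, and CXCL6 and CXCL5 reads are uncertain to that extent too.

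Before the chemokines, the libraries were compared in general terms. Depth ranged from 24231267 to 34561675 counted reads, and between 18861 and 21819 genes had at least 1 read. ANXA2, the targeted gene, reached 1598 ± 119 CPM in the libraries labelled control and 1539 ± 21.3 CPM in those labelled knockdown (SD, n = 3), where CPM are read counts scaled to a common library size after TMM adjustment. The edgeR estimate of its log2 fold change was -0.05 (standard error 0.075, adjusted p 0.848). Permuting the labels gave an exact, two-sided p of 0.4, and this design cannot go under 0.1. ANXA2 was thus not detectably lower under the knockdown label, and every difference below is one between labels. Of the proximal tubule markers, PAX8 (343 to 677 CPM) and GGT1 (208 to 280 CPM) were well detected, whereas LRP2, CUBN, AQP1 and HNF4A had at most 12 reads in a library. No batch or date is given in the labels.

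The chemokine messages in HK-2 cells spanned a wide range of levels, with CXCL8 as the most abundant. Levels are compared between genes as FPKM, which are scaled for transcript length, over all 6 libraries (mean ± SD, n = 6). CXCL8, the neutrophil attractant also known as interleukin-8, reached 577 ± 327 FPKM. It was followed by CXCL2 at 161 ± 111, CXCL5 at 73.0 ± 46.2, CCL20 at 68.7 ± 59.0, CCL2 at 62.9 ± 48.6 and CXCL3 at 25.1 ± 20.6 FPKM. The membrane-anchored pair had the lowest means among the tested genes, with CX3CL1 at 6.50 ± 1.61 and CXCL16 at 5.55 ± 1.74 FPKM. The ranges over libraries overlapped between each neighbouring pair of these 8 genes. Within libraries, CXCL8 exceeded CXCL2, CCL2 exceeded CXCL3, and CX3CL1 exceeded CXCL16 in 6 of 6, while CXCL2 exceeded CXCL5 in 5 of 6 and CXCL5 exceeded CCL20 in 3 of 6. CCL20 exceeded CCL2 in 4 of 6, and CXCL3 exceeded CX3CL1 in 4 of 6. In control replicate 1 and knockdown replicate 3, CXCL3 was the lowest of the 8, at 3.01 and 5.86 FPKM, so the order by the mean did not hold in every library.

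CXCL6 had almost no counted reads. It had 0, 0 and 2 reads in the libraries labelled control (replicates 1 to 3) and 2, 5 and 0 in those labelled knockdown, or at most 0.08 FPKM. CXCL5, whose printed promoter stretch is closely similar, had 965 to 12229 reads. The contrast in counted reads between these genes was thus present in all 6 libraries. The part of the PPBPP1 overlap in the low CXCL6 count was not tested.

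**Figure D1:**
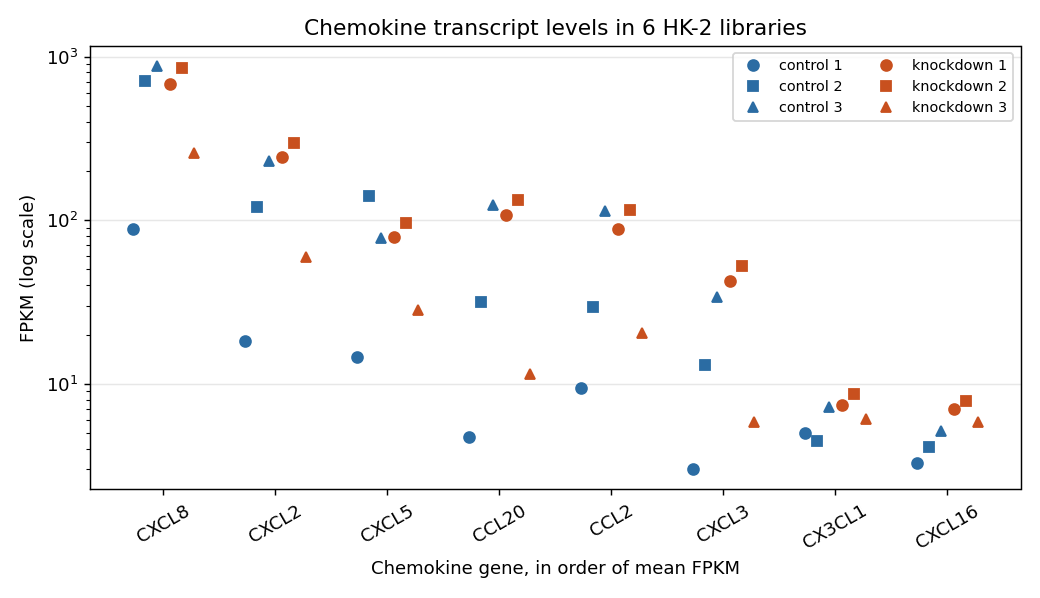
FPKM on a log scale of the 8 tested chemokines, in order of their mean, with a point for each library (blue, labelled control; orange, labelled knockdown; the shape gives the replicate). CXCL8 spans 88.4 to 874 FPKM, control replicate 1 and knockdown replicate 3 lie below the other libraries for the 6 secreted chemokines, and CXCL6, at most 0.08 FPKM, is not drawn.

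The secreted chemokines varied more between replicates of a label than between labels. CXCL8 had 188, 1472 and 1849 CPM in the libraries labelled control and 1461, 1831 and 545 CPM in those labelled knockdown. Control replicate 1 and knockdown replicate 3 were thus low and the other 4 libraries high, so the groups overlapped fully. The group values were 1170 ± 871 and 1279 ± 662 CPM (SD, n = 3), and edgeR put the log2 fold change of knockdown over control at 0.13 (standard error 0.674; adjusted p 0.966). Estimates for the following genes are on this same log2 scale.

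CXCL2, a neutrophil attractant of the GRO group, had 23.8, 152 and 296 CPM in the libraries labelled control and 318, 384 and 77.1 CPM in those labelled knockdown. The lowest value of either group was again that of control replicate 1 and of knockdown replicate 3. The label difference was estimated at 0.72 (standard error 0.761). CXCL3, a close relative of the same group, followed the same order of libraries with 3.44, 14.6 and 38.4 CPM against 49.1, 59.9 and 6.65 CPM, and the estimate was 1.03 with a standard error of 0.825. Leaving out control replicate 1 or control replicate 3 moved the CXCL2 estimate to 0.21 or 1.56 and that of CXCL3 to 0.55 or 2.08. The lowest of all these counts, 84 CXCL3 reads in control replicate 1, has a 95% exact Poisson interval of 67.0 to 104 reads, which covers counting error only and is far narrower than the gaps between libraries.

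CXCL5, an epithelial ligand of CXCR2, departed from this order in 1 library. It had 39.6, 374 and 210 CPM in the libraries labelled control and 215, 260 and 76.1 CPM in those labelled knockdown, with its peak in control replicate 2. By edgeR the label difference was -0.18 (standard error 0.660), while the difference of the mean log2 CPM had the opposite sign at 0.15, so no direction could be given. In FPKM, CXCL5 amounted to 20.1% of CXCL8 in control replicate 2 and to 8.94% in control replicate 3.

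Both CC chemokines swung widely. CCL20 had 4.26, 27.9 and 110 CPM in the libraries labelled control and 96.8, 119 and 10.2 CPM in those labelled knockdown, a 28.0-fold span from the lowest to the highest library. CCL2 had 11.3, 34.7 and 135 CPM in the libraries labelled control and 107, 138 and 24.1 CPM in those labelled knockdown, a 12.2-fold span. In both genes control replicate 2 lay nearer to the low libraries than to the high ones, whereas CXCL8 and CXCL5 were high there. The edgeR estimates were 0.66 (standard error 0.993) for CCL20 and 0.57 (standard error 0.799) for CCL2. Without control replicate 1 they were 0.13 and 0.080, and without control replicate 3 they were 2.22 and 1.96.

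The membrane-anchored chemokines were much steadier. CXCL16 had 8.49, 10.3 and 13.1 CPM in the libraries labelled control and 18.3, 20.4 and 15.1 CPM in those labelled knockdown, so the groups did not overlap. The label difference was estimated at 0.75 (standard error 0.193), and the edgeR adjusted p over all tested genes was 0.599. MED11, which overlaps CXCL16 on the opposite strand, had 7.01 to 9.60 CPM and an estimate of 0.21 with a standard error of 0.179, and its part in the CXCL16 count was not tested. CX3CL1, the fractalkine gene, had 31.8, 27.9 and 45.9 CPM against 47.7, 55.8 and 38.5 CPM. Its groups overlapped through control replicate 3 and knockdown replicate 3, and the estimate was 0.43 with a standard error of 0.200. ADAM10 had 59.4, 93.2 and 58.4 CPM in the libraries labelled control and 52.1, 45.9 and 53.1 CPM in those labelled knockdown, lower without overlap as in 7.7% of all tested genes, with an edgeR adjusted p of 0.605. ADAM17 ranged from 46.4 to 58.8 CPM with an estimate of -0.11 (adjusted p 0.780).

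Across the group, 0 of the 8 chemokines passed an edgeR adjusted p of 0.05, with values from 0.599 to 0.966, where 0% of all tested genes passed (0 of 15299). At an unadjusted p under 0.05 there was 1 chemokine of 8, CXCL16, beside 8.18% of all tested genes. DESeq2, run without that filter, called 32 of 26897 genes but 0 of these 8. Without the low-count filter edgeR called 165 of 26899 genes, 5 of them chemokines (CXCL2, CXCL3, CXCL16, CCL2 and CCL20), at nearly the same fold changes. CXCL16 was likewise the only chemokine of the 8 whose CPM lay higher in all libraries labelled knockdown without overlap, which held for 7.94% of all tested genes. The median estimate was 0.62 over the 8 chemokines and -0.0065 over all tested genes, and 7 of 8 estimates were above 0, beside 49% of all tested genes. The list was drawn up with these values known, so neither count is independent evidence of a direction. Without control replicate 1 the median fell to 0.17, without knockdown replicate 2 it was 0.24, and without control replicate 3 it was 1.24. The CXCL8 estimate turned to -0.37 without control replicate 1 and to -0.22 without knockdown replicate 2.

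**Figure D2:**
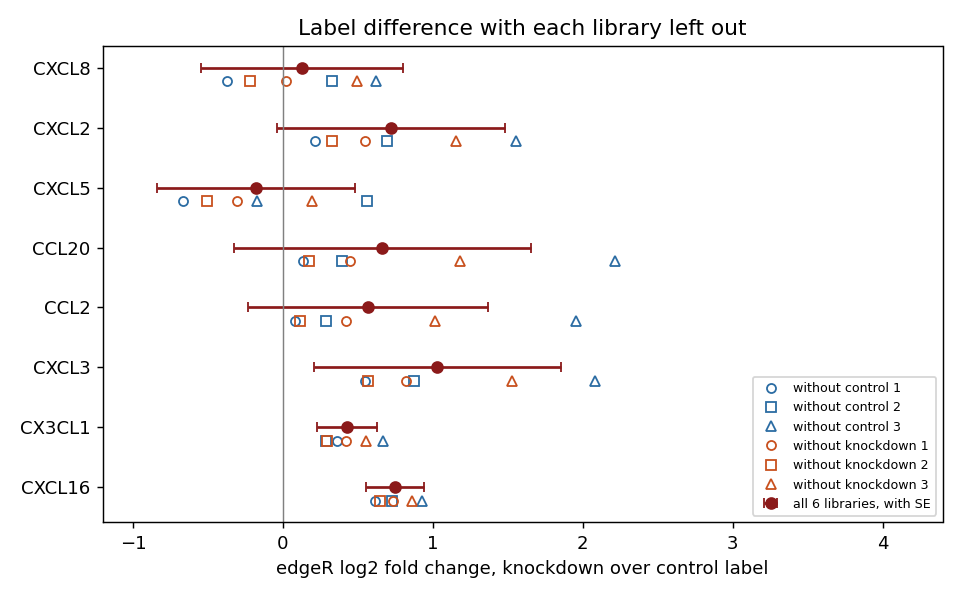
edgeR log2 fold change of knockdown over control label for each chemokine with all 6 libraries (filled points, bars are 1 standard error) and with each library left out in turn (open symbols, blue for control and orange for knockdown libraries). Leaving out control replicate 1 moves CCL20 to 0.13 and CCL2 to 0.080, leaving out control replicate 3 moves them to 2.22 and 1.96, and CXCL16 lies between 0.62 and 0.93.

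Replicate spread set these genes apart from most of the transcriptome in size. The SD between replicates within a label, on the log2 CPM scale, was 2.16 for CCL20, 1.74 for CXCL3, 1.61 for CXCL2, 1.59 for CCL2, 1.44 for CXCL8 and 1.37 for CXCL5, beside a median of 0.22 over all tested genes. Between 98.7% and 99.9% of tested genes had a smaller spread than these 6 secreted chemokines. CXCL16 (0.27) and CX3CL1 (0.32) lay nearer to the middle, with 59.2% and 67.1% of tested genes below them. The labels accounted for 0.464% (CXCL5) to 13.6% (CXCL2) of the variance of the secreted chemokines, for 41.4% in CX3CL1 and for 74.8% in CXCL16, where the median of all tested genes was 17.3%. As a multiple of the replicate SD, the difference between labels was 0.11 to 0.65 for the secreted genes, 1.37 for CX3CL1 and 2.81 for CXCL16.

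**Figure D3:**
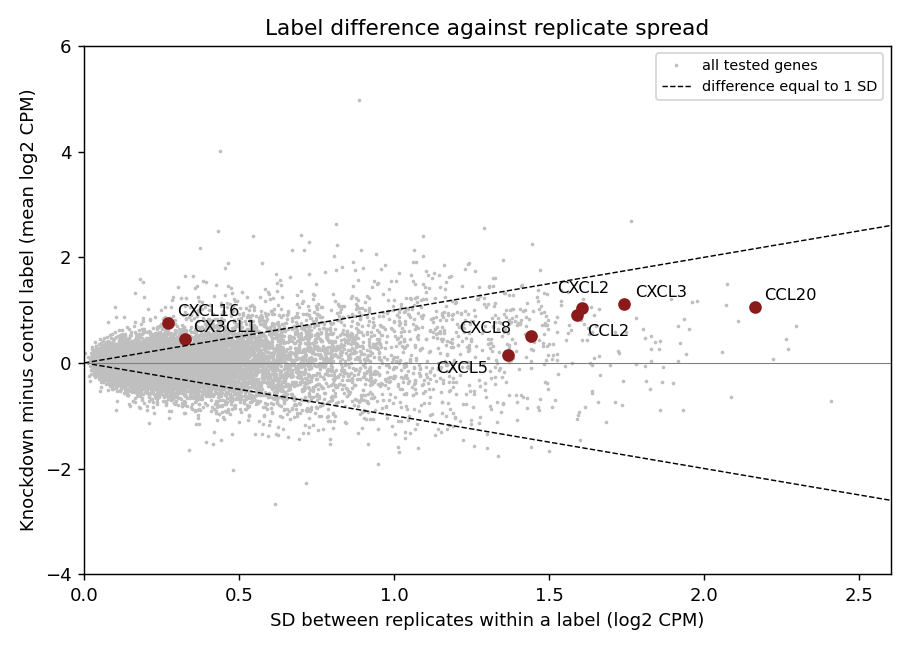
Difference of mean log2 CPM between labels (knockdown minus control) against the pooled SD between replicates within a label, for all tested genes (grey) and the 8 chemokines (red), with dashed lines where the difference equals 1 SD. The 6 secreted chemokines have SDs of 1.37 to 2.16 and lie inside the dashed lines, and CXCL16 and CX3CL1 lie outside them at SDs of 0.27 and 0.32.

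The chemokines rose and fell together from library to library, and the pattern crossed the labels. Control replicate 1 was the lowest library for 7 of the 8 genes, with CX3CL1 lowest in control replicate 2. Knockdown replicate 3 was the second lowest for the 6 secreted genes, and knockdown replicate 2 was the highest for 6 of the 8. The mean log2 CPM of the 8 genes was 4.12, 6.04 and 6.89 in the libraries labelled control and 6.91, 7.19 and 5.19 in those labelled knockdown. Their summed CPM ranged from 311 in control replicate 1 and 793 in knockdown replicate 3 to 2868 in knockdown replicate 2.

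Depth moved with this pattern. The libraries with the lowest chemokine levels were also the shallowest, at 24231267 counted reads in control replicate 1 and 28866835 in knockdown replicate 3, against 31295698 to 34561675 in the other 4, and they had the fewest genes with a read (18861 and 19569). The part of depth in the pattern was not tested. Of 18 leukocyte markers, 8 had a row and 6 were tested, and their summed level was 5.28, 5.96 and 9.46 CPM in the libraries labelled control and 10.0, 12.8 and 7.51 CPM in those labelled knockdown. The most abundant of them were ITGAX (0.943 to 4.39 CPM) and CD14 (1.10 to 3.46 CPM), with correlations to the chemokine mean of 0.84 and 0.41, and the median correlation of the 6 was 0.77. CD68 had 31 to 101 reads and LYZ at most 4 reads in a library. The sums were 4.25 to 8.38 CPM for the endothelial markers, led by ESAM (4.04 to 8.38 CPM), and 31.9 to 41.3 CPM for the fibroblast markers, led by LUM (21.0 to 27.2 CPM) and COL1A1 (4.50 to 10.6 CPM). PAX8 followed the chemokines with a correlation of 0.96 to their mean profile. It was the only 1 of 8 tested proximal tubule markers at 0.9 or more, and the median of the 8 was -0.16. The median over the 4 tested fibroblast markers was -0.63, with LUM at -0.82 and COL1A1 at 0.33. The epithelial keratins KRT8 (850 to 1343 CPM) and KRT18 (444 to 625 CPM) were abundant in all 6 libraries. Of the 5 epithelial markers 4 were tested, and the cadherin CDH1, left out by the filter, had 2 to 16 reads in a library. The part of these marker levels in the chemokine pattern was not tested.

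**Figure D4:**
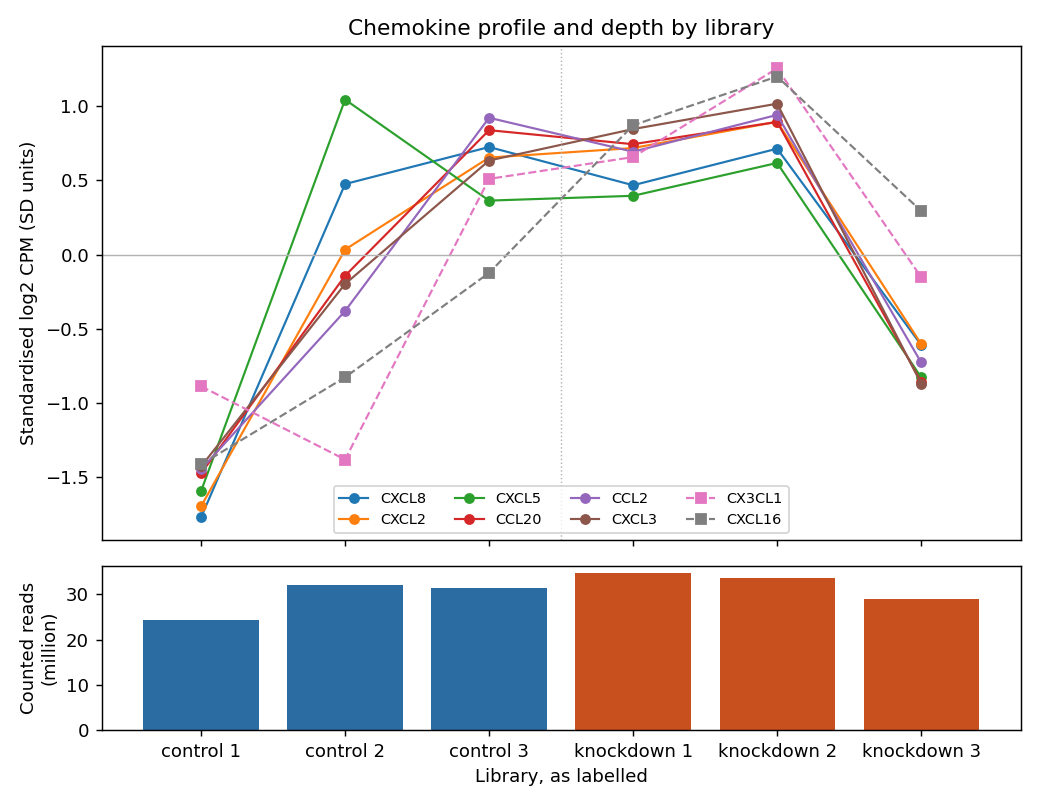
Log2 CPM of each chemokine, centred and divided by its SD over the 6 libraries (upper panel; solid lines, secreted; dashed lines, membrane-anchored), with the counted reads of each library (lower panel). Control replicate 1 (24231267 reads) and knockdown replicate 3 (28866835) hold the low points of the secreted chemokines on either side of the dotted line between labels.

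Pairwise Pearson correlations of log2 CPM over the 6 libraries describe this further, with the caution that the points share library and depth and that covariation was part of how the genes were listed. All 28 pairs of the 8 genes were positive, from 0.26 (CXCL5 with CX3CL1) to 0.99 (CXCL3 with CCL20), with a median of 0.81 beside -0.0017 over all pairs of tested genes. A coefficient of at least 0.9 was reached by 39.3% of the chemokine pairs (11 of 28), all of them between secreted genes, and by 1.50% of all pairs. After the mean of each label was subtracted the median was 0.91. The rank correlation gave a median of 0.77.

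The secreted genes were not equally close. CXCL2, CXCL3, CCL2 and CCL20 had coefficients of 0.97 to 0.99 among themselves. CXCL8 correlated at 0.97 with CXCL2 and at 0.95 with CXCL5, while CXCL5 correlated at 0.74 with CCL2 and 0.81 with CCL20. CXCL16 and CX3CL1 correlated at 0.88, at 0.26 to 0.62 with CXCL5 and CXCL8, and at 0.70 to 0.81 with CXCL2, CXCL3, CCL2 and CCL20. Without control replicate 1 and knockdown replicate 3, over the other 4 libraries, the coefficients ran from -0.89 (CXCL5 with CCL20) to 1.00 (CXCL2 with CX3CL1) with a median of 0.78, and 21 of the 28 pairs stayed positive. All 7 pairs that turned negative involved CXCL5.

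**Figure D5:**
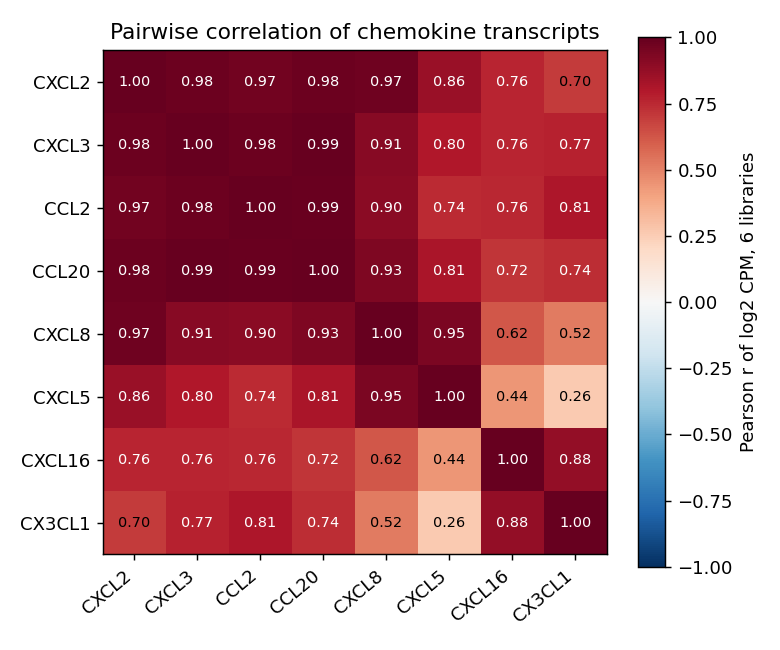
Pearson correlation of log2 CPM over the 6 libraries for each pair of chemokines, from -1 (blue) to 1 (red). CXCL2, CXCL3, CCL2 and CCL20 form a block of 0.97 to 0.99, and the weakest cell is CXCL5 with CX3CL1 at 0.26.

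The genes whose pattern lay closest to the chemokines were then listed, by Pearson correlation with the mean standardised profile of the 8 over 6 libraries, among 10532 other tested genes with a mean of at least 5 CPM. Of these, 285 (2.71%) reached 0.9. ZC3H12A, which encodes the ribonuclease Regnase-1 that degrades inflammatory mRNAs, came first at 0.997. It had 34.7, 122 and 322 CPM in the libraries labelled control and 312, 408 and 89.5 CPM in those labelled knockdown, an 11.7-fold span. The other genes of the closest 10 lay between 0.989 and 0.997. Among them were RGS17, an inhibitor of G protein signalling, NAMPTP1, a processed pseudogene of NAMPT whose reads are therefore uncertain, the acute-phase transcription factor CEBPD, CDK5RAP1, the kinases MAP2K3 and MAP2K1, the sorting adaptor GGA1, and IRAK2, a kinase of interleukin-1 receptor signalling. The amplitude of those named differed, from a 1.32-fold span between libraries in CDK5RAP1 to 3.37-fold in IRAK2 and 4.06-fold in NAMPTP1. A close likeness over 6 points says nothing of shared control.

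The pathways around these ligands were described from lists that were written with earlier results of these data known. None of their tested genes passed an edgeR adjusted p of 0.05. Among 23 inducers, their receptors and adaptors, 20 were tested, with 14 estimates above and 6 below 0, a median of 0.14 and a smallest adjusted p of 0.605. The cytokine IL6 was the most abundant of them and followed the chemokines at a correlation of 0.98, with 134, 689 and 863 CPM in the libraries labelled control and 953, 1176 and 334 CPM in those labelled knockdown. TNF, a classical inducer of these ligands (named after its values were seen), had a correlation of 0.97 with 1.11 to 7.93 CPM. The kinase IRAK1 (401 to 514 CPM) and the TNF receptor TNFRSF1A (158 to 241 CPM) had -0.34 and -0.093.

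The feedback inhibitors of NF-kB and its subunits were set side by side. Of 12 tested inhibitors (13 listed), 6 had a correlation of at least 0.9 with the chemokine mean and the median was 0.93, against 2 of 13 and a median of 0.58 for the NF-kB subunits and IKK genes, a difference that was not tested. NFKBIA, which encodes the inhibitor that holds NF-kB in the cytoplasm, had 97.3, 172 and 338 CPM in the libraries labelled control and 295, 340 and 147 CPM in those labelled knockdown. TNIP1, a partner of the ubiquitin-editing enzyme A20, had 169, 281 and 570 against 568, 714 and 225 CPM. NFKBIZ, counted here on the inhibitor list, had 60.5, 213 and 305 against 269, 327 and 116 CPM. Among the subunits, NFKB2 spanned 89.8 to 202 CPM and NFKB1 68.3 to 137 CPM, with correlations of 0.91 and 0.92, while RELA kept within 97.7 to 119 CPM. Estimates were above 0 for 10 of 12 inhibitors, with a median of 0.33, and for 9 of 13 subunits, with a median of 0.14, and the smallest adjusted p was 0.605 and 0.599.

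The regulators of mRNA decay that were most abundant varied little between libraries. All 12 listed genes were tested, with 6 estimates on either side of 0 and a median of -0.0059. The zinc-finger protein ZFP36L1, which binds AU-rich elements, spanned 488 to 604 CPM, HNRNPD spanned 420 to 489 CPM, and KHSRP, a decay-promoting RNA-binding protein, spanned 290 to 363 CPM. Their correlations with the chemokine mean were 0.91, 0.76 and -0.92, and over all 12 the median was 0.090, with 2 genes at 0.9 or more. The pentamer ATTTA, the unit of AU-rich elements, was counted in the 3′ UTR of 1 canonical transcript per gene (GENCODE release 44). It occurred 13.9 times per kb in CXCL2, 10.4 in CXCL3, 7.17 in CXCL8, 6.30 in CCL20 and 5.51 in CXCL5, but 2.64 times in CCL2, 1.03 in CXCL16 and 0.993 in CX3CL1. The median over 12301 tested protein-coding genes with a 3′ UTR of at least 100 bases was 1.79 per kb. The share of them at least as dense was 0.301% for CXCL2, 0.707% for CXCL3 and 2.77% for CXCL8. It was 4.44% for CCL20, 6.83% for CXCL5, 34.6% for CCL2, 64.45% for CXCL16 and 65.2% for CX3CL1.

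Of 8 genes for shedding and processing of chemokines, 6 were tested, with 1 estimate above and 5 below 0, a median of -0.18 and a smallest adjusted p of 0.599. DPP4, a peptidase that trims chemokine N termini, had 109 to 158 CPM, and the protease FURIN had 75.6 to 85.8 CPM. The ligands and receptors outside the group were scarce. Of 36 other chemokine ligands, 9 had a row and 2 were tested, CCL28 (8.44 to 13.9 CPM) and CCL5 (0.246, 0.489 and 0.257 against 1.11, 1.27 and 0.242 CPM, adjusted p 0.615), and the untested ones had at most 4 reads in a library. Of 22 chemokine receptors, 11 had a row, and only CXCR5 was tested, at 0.935 to 2.18 CPM. CCR2 and CX3CR1, the receptors of CCL2 and CX3CL1, each had 1 read in 1 library.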

How the data were processed

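The authors deposited raw read counts per gene, not normalised, and a table of FPKM values of the same libraries, rounded to 2 decimals. TopHat2, edgeR and GRCh38 are named in the submitters' processing notes. The sources at hand do not state the counting program, the annotation release or the strand setting. All sample columns were used. Replicates differed beyond sampling noise (chi-square per degree of freedom 10.3 to 54.2), and each was counted as 1 sample. These values cannot show that the libraries came from separate cultures.

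Counts were scaled by TMM, filtered with the edgeR 4.0.16 defaults (minimum count 10, total 15) and tested with its two-sided quasi-likelihood test in R 4.3.3, with 6 libraries, no covariate, and Benjamini-Hochberg adjustment over all tested genes at a threshold of 0.05. The standard error of an edgeR estimate was derived as its absolute log2 fold change divided by the square root of the quasi-likelihood F statistic. Log2 CPM used a prior count of 2. The fitting code was tested on simulated data. The members and the lists were chosen with earlier results of these data known. The genes named were the listed chemokines and ANXA2, the 10 most similar genes with a mean of at least 5 CPM (1 of them is not reported here), and the 3 most abundant tested genes of each pathway list and 2 of each marker list. LYZ, CD68, CDH1, LRP2, CUBN, AQP1, HNF4A, CCR2, CX3CR1, TNF, MED11, ZMYND15 and ADAM17 were named after their values were seen. Alternatives were DESeq2 1.42.0, limma 3.58.1 (voom, and trend on log2(FPKM + 1) or log2(FPKM + 0.1) with at least 0.5 FPKM in 3 libraries, or no filter), other scalings, no low-count filter, the replicate number as a block, and leaving out libraries.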

Additional observations from a re-analysis of the deposited data

How the results depend on the processing

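The label difference reached an adjusted p of 0.05 for 0 of 15299 genes with edgeR, against 1251 before adjustment. It did so for 32 of 26897 genes with DESeq2 and for 165 of 26899 with edgeR when low counts were not filtered. That unfiltered fit called 5 chemokines, CXCL2 (adjusted p 7.3e-07), CXCL3 (4.46e-08), CXCL16 (0.0181), CCL2 (0.00453) and CCL20 (0.000336), and the cause was not tested. None of the other alternatives called a chemokine. Leaving out 1 library gave 0 to 4 genes, with 4 without knockdown replicate 2, and leaving out control replicate 1 and knockdown replicate 3 together, chosen after the data were seen, gave 6.

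Same-numbered libraries did not deviate together (correlations of deviations -0.062, 0.12 and -0.20), so the numbers were not taken as pairs. With the replicate block edgeR gave 0 genes, the median of the chemokine estimates was 0.94 and that of CXCL5 turned to 0.049. The CXCL5 estimate also turned positive with limma-voom (0.12), with limma-trend on log2(FPKM + 1) with and without the filter (0.12) and on log2(FPKM + 0.1) (0.14), and without control replicate 2 (0.56) or knockdown replicate 3 (0.19). When 1 library was left out CXCL5 spanned -0.66 to 0.56 and CXCL8 spanned -0.37 to 0.62, with -0.22 without knockdown replicate 2. Without both low libraries CXCL8 was -0.011. The cause of these changes of sign was not tested. The ANXA2 estimate kept its sign and its side of the threshold throughout. The median correlation of the chemokines was 0.70 to 0.97 when 1 library was left out, lowest without control replicate 1.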
